A study of Homo sapiens with 6 samples.

Results

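Matrix breakdown at the cell surface runs on a pair of linked protease systems. Urokinase, bound to its receptor on the cell membrane, turns plasminogen into plasmin, and the serine protease inhibitors of the serpin family hold it in check. Plasmin and the membrane-anchored metalloproteinases activate secreted matrix metalloproteinases, zinc enzymes that cleave collagen and other matrix proteins and are blocked by the tissue inhibitors of metalloproteinases. Both systems are known for their part in the invasion of carcinoma cells, including those of the bladder.

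The values below describe 9 genes of these systems, the activators PLAU and PLAT, the receptor PLAUR, the serpin SERPINB2, the metalloproteinases MMP1, MMP2 and MMP14, and the inhibitors TIMP1 and TIMP2. They were chosen by symbol, and all 9 were found among the 37871 genes of the deposited count table and among the 19170 with enough counts to be tested. RNA came from T24, an established line of human bladder carcinoma cells, after lipopolysaccharide (LPS) plus nigericin in 3 libraries and after vehicle in 3 libraries. LPS, from the outer membrane of Gram-negative bacteria, is sensed by TLR4. Nigericin carries potassium out of cells and is widely used to trigger the NLRP3 inflammasome. Both groups were T24 cells grown in high glucose DMEM with antibiotics, and the labels name no genetic change. Doses, times and the composition of the vehicle were not given in the sources used here. No group received either agent alone, so no difference can be assigned to LPS or to nigericin. The labels do not say whether separate cultures were used, and p-values then measure only how these libraries vary, and part of that may be technical.

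Libraries held 66180407 to 86594539 counts after LPS plus nigericin and 81917343 to 89152224 after vehicle. Levels are in CPM (counts scaled to library size with TMM factors), and differences are log2 fold changes of LPS plus nigericin over vehicle with their standard error (SE). Adjusted p-values are from edgeR's quasi-likelihood test over all 19170 genes, with 0.05 as the threshold. In bulk RNA, fewer cells of a type and less RNA per cell cannot be told apart. The epithelial keratin genes KRT7, KRT8, KRT18 and KRT19 were abundant in both groups, and all 4 fell after LPS plus nigericin. Their log2 fold changes were -0.72, -0.97, -1.71 and -1.38, or 0.09, -0.51, -1.25 and -0.59 under the GC and length correction of the next paragraph, where KRT7 did not pass (edgeR adjusted p = 0.340). KRT8 and KRT18 share 525 exon bases on opposite strands. In contrast, the E-cadherin gene CDH1 was at 0 in all libraries but 1, and EPCAM averaged 2.89 CPM after LPS plus nigericin and 1.93 CPM after vehicle. The uroplakin genes UPK1B and UPK3A, which mark differentiated urothelium, were at 0 in every vehicle library, with 4 counts of UPK3A in 1 LPS plus nigericin library. UPK2 had 22, 23 and 0 counts after LPS plus nigericin and 41, 57 and 36 after vehicle. The urothelial regulators PPARG and GATA3 were expressed and fell. PPARG averaged 40.6 ± 2.89 CPM after LPS plus nigericin and 83.5 ± 3.88 CPM after vehicle (log2 fold change -1.04), and GATA3 averaged 11.2 ± 0.306 CPM after LPS plus nigericin and 18.3 ± 3.09 CPM after vehicle (-0.71). With that correction GATA3 was at -0.46. The part of these marker changes in the results below was not tested. Of 7 fibroblast markers, which summed to 4.74 to 5.20 CPM after LPS plus nigericin and 5.18 to 6.22 CPM after vehicle, DCN and LUM were at 0 in every library. Leukocyte markers summed to 2.28 to 4.24 CPM after LPS plus nigericin and 2.64 to 4.26 CPM after vehicle, nearly all of it CD14, which averaged 3.06 ± 0.945 CPM after LPS plus nigericin and 3.43 ± 0.810 CPM after vehicle and did not pass. PTPRC had 3 counts in 1 library and 0 in the others.

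A trend with base composition ran with the groups. Across tested genes, the deviation of a library from the 6-library mean in log2 CPM had a Spearman correlation with the GC content of the longest transcript of -0.448 to -0.346 after LPS plus nigericin and of 0.145 to 0.516 after vehicle. Whether that trend came from the treatment or from the preparation of the libraries cannot be told apart here. A second fit removed each library's trend with GC content and transcript length, together with any effect of the treatment that follows them. For a single gene or ratio with a printed log2 value, the corrected value is given wherever the correction ended a call, turned a direction or moved that value by over 1.5 times.

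Promoter sequence of RefSeq (GRCh38.p14) was searched for 5 of the 9 genes in 6 windows of 250 bases before an annotated start. MMP1, MMP2 and TIMP2 had no window in the sequences used here, and PLAT was not searched. The 4 windows below are shown because they belong to the rising PLAU and SERPINB2, the falling MMP14, and PLAUR, which shares a motif with SERPINB2. Capitals mark matches, on either strand, to TGANTCA (the AP-1 motif), TATAAA (the TATA box) or GGGCGG (the SP1 motif), where N is any base. Each runs 5′ to 3′ on the strand of its gene and ends 1 base before the start.
SERPINB2 (chr18:63887455-63887704, plus strand): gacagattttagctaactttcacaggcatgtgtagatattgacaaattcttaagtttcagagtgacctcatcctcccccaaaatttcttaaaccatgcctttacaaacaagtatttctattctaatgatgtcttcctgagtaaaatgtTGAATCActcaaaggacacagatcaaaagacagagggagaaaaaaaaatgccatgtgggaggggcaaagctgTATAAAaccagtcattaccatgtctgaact
PLAUR (chr19:43670170-43670419, minus strand): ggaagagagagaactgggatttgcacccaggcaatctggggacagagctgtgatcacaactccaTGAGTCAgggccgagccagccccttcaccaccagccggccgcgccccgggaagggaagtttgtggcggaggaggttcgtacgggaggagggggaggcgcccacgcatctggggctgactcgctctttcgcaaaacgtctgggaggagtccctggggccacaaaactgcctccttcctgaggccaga
PLAU (chr10:73910882-73911131, plus strand): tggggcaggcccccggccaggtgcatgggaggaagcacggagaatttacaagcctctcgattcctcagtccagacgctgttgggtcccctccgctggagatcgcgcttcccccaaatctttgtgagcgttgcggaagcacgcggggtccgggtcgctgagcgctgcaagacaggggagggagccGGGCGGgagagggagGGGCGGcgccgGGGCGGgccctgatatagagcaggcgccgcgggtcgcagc
MMP14 (chr14:22836335-22836584, plus strand): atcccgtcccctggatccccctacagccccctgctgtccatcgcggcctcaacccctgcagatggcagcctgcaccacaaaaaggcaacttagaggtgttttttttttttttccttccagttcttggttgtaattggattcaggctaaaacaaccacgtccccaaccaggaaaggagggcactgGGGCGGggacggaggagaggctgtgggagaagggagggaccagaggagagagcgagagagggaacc

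The AP-1 letters were found at -102 to -96 of SERPINB2 and at -186 to -180 of PLAUR, counted from the annotated start, and in none of the other 4 windows, which include TIMP1 and a further PLAU start. Of 35116 windows of the same length in the RefSeq table, 6.57% held them. The TATA letters stood at -30 to -25 of SERPINB2 and in 10.7% of all windows. The printed PLAU window held 3 matches to GGGCGG, TIMP1 held 2 and MMP14 held 1, while the further PLAU window, PLAUR and SERPINB2 held 0, where 42.6% of all windows held at least 1. A loose NF-kB motif was searched too. Its matches can overlap each other and the SP1 letters, and it was found in all windows but that of SERPINB2 and in 54.4% of all windows. A match is a description of these letters and shows no binding.

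After LPS plus nigericin, 5 of the 9 genes rose (SERPINB2, MMP1, TIMP2, PLAU and MMP2), 2 fell (MMP14 and PLAT), and PLAUR and TIMP1 did not pass the threshold. Of all 19170 tested genes, 28.9% were higher, 26.4% were lower and 55.3% passed in either direction, against 7 of the 9 genes here. The 9 genes were chosen with earlier results of these data known, so this comparison is a description only. The median log2 fold change of the 9 genes was 0.38, and that of all tested genes was 0.00158. For the 5 that rose, all LPS plus nigericin libraries were above all vehicle libraries, which held for 35% of tested genes. For the 2 that fell, all were below, which held for 32%, so 67% of tested genes had groups apart. Under the GC and length correction, 7 rose and only PLAT fell, where 23.4% of all genes were higher, 26.3% lower and 49.7% either. Summed over the 9 genes, the level was 1721 to 1909 CPM after LPS plus nigericin and 1959 to 2180 CPM after vehicle, and MMP14 and TIMP1 made up most of it in each group.

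**Figure D1:**
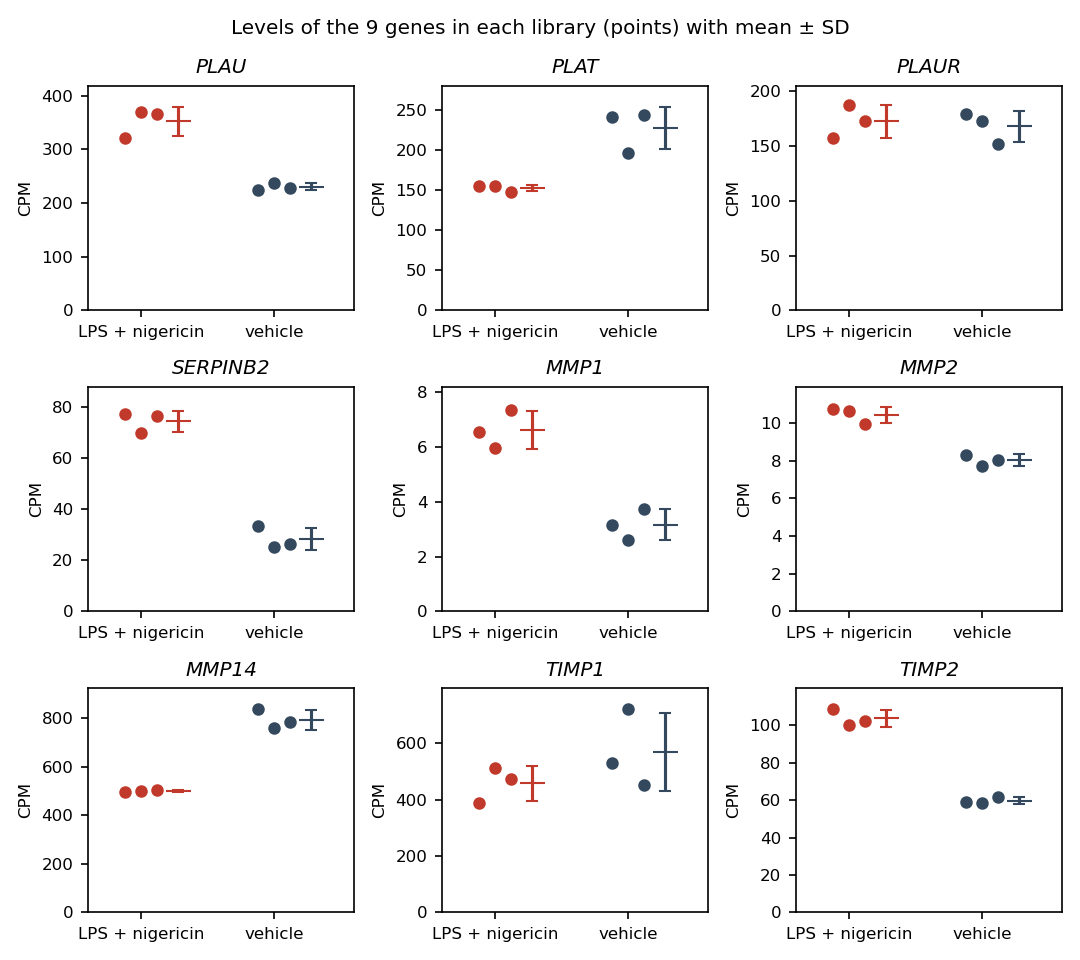
Level of each of the 9 genes in CPM (linear axis from 0) in the 3 LPS + nigericin libraries (red points, left) and the 3 vehicle libraries (blue points, right), with the mean ± SD beside them. The groups are apart for 7 genes and overlap for PLAUR and TIMP1.

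Among the plasminogen activators, PLAU, which encodes urokinase, rose, and PLAT, which encodes tissue plasminogen activator, fell. PLAU had 321, 370 and 365 CPM after LPS plus nigericin, against 225, 238 and 228 CPM after vehicle. The lowest treated library was well above the highest vehicle library. The mean of 352 ± 27.1 CPM against 230 ± 6.58 CPM (SD, n = 3 each) was 1.53-fold higher (log2 fold change 0.61 ± 0.106 SE, adjusted p in edgeR = 0.00201). Under the GC and length correction the log2 fold change of PLAU was 0.98 (SE 0.0700). PLAU (ENSG00000122861) spans 73909177 to 73917497 of chromosome 10 (plus strand) in GENCODE 29 on GRCh38. It shares 916 exon bases with C10orf55 on the other strand, and whether counting used strand was not given in the sources used here. C10orf55 had 468 counts in all 6 libraries together, and PLAU at least 18123 in each.

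PLAT had 155, 154 and 148 CPM after LPS plus nigericin, against 241, 196 and 243 CPM after vehicle. All treated libraries lay within a few CPM of each other, below the lowest vehicle library. PLAT fell 1.49-fold, to 152 ± 4.09 CPM against 227 ± 26.5 CPM in vehicle (log2 fold change -0.58 ± 0.118 SE, adjusted p in edgeR = 0.00434), and the corrected value was -0.94 (SE 0.0727). The gene (ENSG00000104368) occupies 42175233 to 42207724 of chromosome 8, minus strand. Per kilobase of exon, PLAU RNA was 4.65, 5.38 and 5.55 times PLAT RNA after LPS plus nigericin, against 2.09, 2.72 and 2.10 times after vehicle, with no overlap between the groups.

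The urokinase receptor gene PLAUR, whose product holds urokinase on the membrane by a lipid anchor, did not pass the threshold. It had 158, 188 and 173 CPM after LPS plus nigericin and 179, 173 and 152 CPM after vehicle, so the groups overlapped. The log2 fold change was 0.04 (SE 0.117, edgeR adjusted p = 0.794). Its direction was not fixed, since it was -0.01 with library totals, -0.04 without vehicle library 3 and -0.03 without LPS plus nigericin library 2. PLAUR passed as higher under that correction, at 0.51 (SE 0.0756, edgeR adjusted p = 7.96e-04). PLAUR (ENSG00000011422) spans 43646095 to 43670547 of chromosome 19 (minus strand).

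SERPINB2, which encodes plasminogen activator inhibitor type 2, an inhibitor of urokinase that is largely kept inside cells, had the largest rise of the 9 genes. It had 77.1, 69.7 and 76.5 CPM after LPS plus nigericin, against 33.4, 25.1 and 26.3 CPM after vehicle. Every treated library was more than 2 times as high as every vehicle library. The means of 74.4 ± 4.09 CPM after LPS plus nigericin and 28.3 ± 4.47 CPM after vehicle (SD, n = 3 each) gave a 2.63-fold rise (log2 fold change 1.39 ± 0.142 SE, adjusted p in edgeR = 2.15e-04). With the correction the value was 0.87 (SE 0.135, edgeR adjusted p = 9.93e-04). SERPINB2 (ENSG00000197632) occupies 63871692 to 63903890 of chromosome 18 (plus strand) and shares 547 exon bases with SERPINB10, which had 12 counts in all libraries together.

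The balance of urokinase RNA to this inhibitor was compared within each library. The ratio of PLAU to SERPINB2, both per kilobase, was 3.88, 4.95 and 4.45 after LPS plus nigericin, against 6.27, 8.80 and 8.07 after vehicle, a difference of -0.79 on the log2 scale. Without overlap between the groups this gave the smallest two-sided exact permutation p that 3 against 3 libraries allow, 0.1. The corrected difference was 0.09, so its direction rests on how the composition trend is treated. Among genes averaging 5 CPM or more, those whose log2 CPM followed SERPINB2 most closely over the 6 libraries were ZSWIM4, TBCE and RANBP10, with Pearson r of 0.9984, 0.9982 and 0.998. All 6 libraries share the same division into groups, and 1579 of 10482 such genes had an r above 0.95, so the likeness is a description only.

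Of the metalloproteinases, MMP1, the interstitial collagenase that cleaves fibrillar collagen, rose, at low levels in both groups. It had 6.54, 5.97 and 7.33 CPM after LPS plus nigericin, against 3.14, 2.60 and 3.74 CPM after vehicle. The groups did not overlap, and the rise was 2.09-fold (6.62 ± 0.685 CPM against 3.16 ± 0.572 CPM, log2 fold change 1.06 ± 0.202 SE, adjusted p in edgeR = 0.00312). The corrected value was 0.70 (SE 0.156, edgeR adjusted p = 0.00610). These levels rest on 433, 498 and 616 counts after LPS plus nigericin and 287, 198 and 341 after vehicle. MMP1 (ENSG00000196611) spans 102789920 to 102798160 of chromosome 11 (minus strand).

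MMP2, gelatinase A, which cleaves basement membrane collagen, differed least among the genes that passed. It had 10.7, 10.6 and 9.92 CPM after LPS plus nigericin, against 8.30, 7.68 and 8.04 CPM after vehicle. The groups were apart, but the rise was small (1.30-fold, log2 fold change 0.38 ± 0.139 SE, adjusted p in edgeR = 0.0476). Its call was lost without any 1 of the 6 libraries (edgeR adjusted p = 0.0660 to 0.137), with RLE factors (0.0550), with library totals (0.133), without the count filter (0.109) and with the replicate number as a block (0.0964). MMP2 was at 0.70 with the correction (SE 0.124, edgeR adjusted p = 0.00191). MMP2 (ENSG00000087245) occupies 55389700 to 55506691 of chromosome 16 (plus strand).

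MMP14, which encodes a membrane-anchored metalloproteinase that cleaves collagen and activates the MMP2 proenzyme, fell 1.59-fold. It had 497, 499 and 504 CPM after LPS plus nigericin, against 839, 760 and 783 CPM after vehicle. The treated libraries were almost equal, and all lay below the lowest vehicle library (500 ± 3.68 CPM against 794 ± 40.7 CPM, log2 fold change -0.67 ± 0.101 SE, adjusted p in edgeR = 0.00110). With the correction the value was -0.23 (SE 0.0920) and did not pass (edgeR adjusted p = 0.0671). MMP14 has the highest GC content of the 9 genes, at 58.9%, against a median of 49.0% over tested genes. It spans 22836557 to 22849027 of chromosome 14 (plus strand) (ENSG00000157227).

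Of TIMP1 and TIMP2, which encode inhibitors that bind active metalloproteinases, only TIMP2 passed in the fit with all libraries and no correction. TIMP2, which blocks MMP2 and also bridges its proenzyme to MMP14 for activation, rose 1.73-fold. TIMP2 had 108, 100 and 102 CPM after LPS plus nigericin, against 59.1, 58.4 and 61.7 CPM after vehicle. Both groups were tight and far apart (104 ± 4.33 CPM against 59.7 ± 1.74 CPM, log2 fold change 0.79 ± 0.10 SE, adjusted p in edgeR = 5.18e-04). TIMP1, a weak inhibitor of MMP14, had 388, 511 and 473 CPM after LPS plus nigericin and 530, 720 and 452 CPM after vehicle. The groups overlapped, and vehicle library 2 was the highest (log2 fold change -0.31 ± 0.189 SE, adjusted p in edgeR = 0.194). Without vehicle library 3 TIMP1 passed as lower, at -0.46 (edgeR adjusted p = 0.0471), and with the correction it passed as higher, at 0.29 (edgeR adjusted p = 0.0319), so no direction is given for it. TIMP2 (ENSG00000035862) occupies 78852977 to 78925387 of chromosome 17 (minus strand) and TIMP1 (ENSG00000102265) at 47582313 to 47586789 of chromosome X (plus strand).

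**Figure D2:**
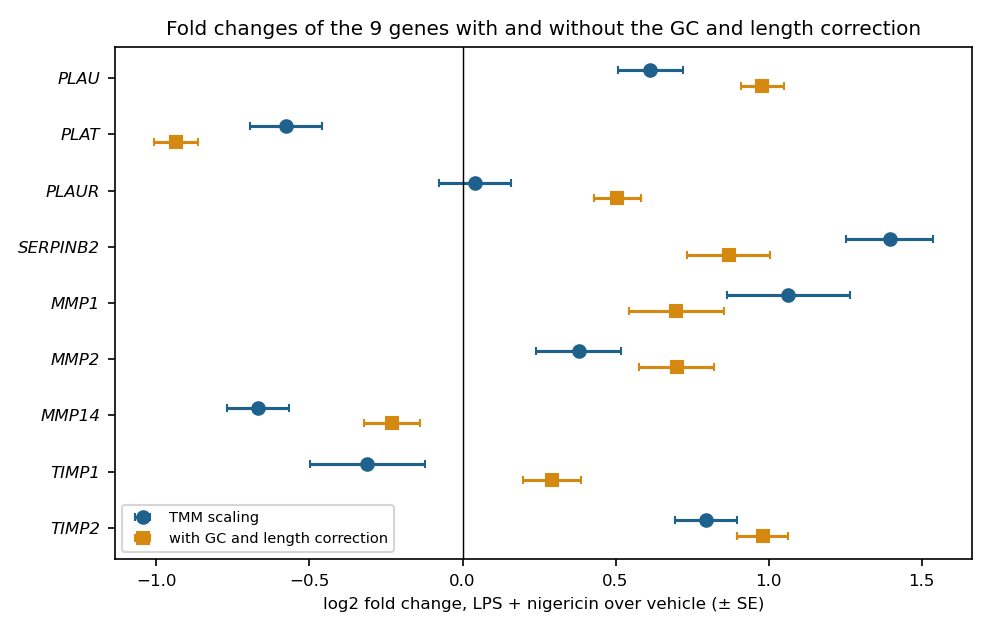
Log2 fold change (± SE) of LPS + nigericin over vehicle for each of the 9 genes, with TMM scaling alone (blue circles) and with the added correction for GC content and transcript length (orange squares). SERPINB2, MMP1 and PLAT move down with the correction, the other 6 genes move up, and TIMP1 changes sign.

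The GC-poor members moved one way under the correction and the GC-rich members the other. Removing the GC trend seen here tends by itself to lower the log2 fold changes of GC-poor genes and raise those of GC-rich genes. The split therefore describes the correction and is no separate result about the members. SERPINB2, MMP1 and PLAT have the lowest GC content of the 9, at 41.0%, 43.4% and 45.6%, and their log2 fold changes were lower with the correction. The other 6 genes lie between 53.7% and 58.9%, and theirs were higher. SERPINB2, PLAU, MMP1 and TIMP2 rose and PLAT fell with and without it. Over the alternatives tried, including each library left out, these 5 genes stayed past the threshold in the same direction, with log2 fold changes of 0.87 to 1.53 for SERPINB2, 0.70 to 1.19 for MMP1, 0.74 to 0.98 for TIMP2, 0.56 to 0.98 for PLAU and -0.94 to -0.53 for PLAT.

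Per kilobase of annotated exon, the order of levels also differed between the groups. After LPS plus nigericin it ran from TIMP1 (297 ± 40.9 CPM per kilobase, SD, n = 3) through PLAU (119 ± 9.17), MMP14 (112 ± 0.825), PLAUR (38.7 ± 3.37), SERPINB2 (27.1 ± 1.49), PLAT (23.0 ± 0.617), TIMP2 (18.4 ± 0.769) and MMP1 (3.36 ± 0.348) to MMP2 (2.11 ± 0.0889). Only the libraries of PLAU and MMP14 overlapped among neighbours in that order. After vehicle it ran from TIMP1 (368 ± 89.2) through MMP14 (178 ± 9.12), PLAU (78.1 ± 2.23), PLAUR (37.7 ± 3.20), PLAT (34.3 ± 4.0), TIMP2 (10.6 ± 0.308), SERPINB2 (10.3 ± 1.63) and MMP2 (1.62 ± 0.0630) to MMP1 (1.6 ± 0.291). There the libraries of PLAUR and PLAT, of TIMP2 and SERPINB2, and of MMP2 and MMP1 overlapped. PLAUR depends on the length used, and with the length of its longest transcript its level was 107 ± 9.34 CPM per kilobase after LPS plus nigericin and 104 ± 8.87 after vehicle, above PLAU in vehicle. That length also turned the order of other neighbours after LPS plus nigericin. PLAT, at 44.0 ± 1.18 CPM per kilobase, then stood above SERPINB2, at 34.5 ± 1.90, and MMP14, at 134 ± 0.987, stood beside PLAU, at 133 ± 10.2.

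Within a library, the balance of metalloproteinase to inhibitor RNA differed in different directions for different pairs. The ratio of MMP14 to TIMP2 per kilobase was 5.78, 6.28 and 6.22 after LPS plus nigericin, against 17.9, 16.4 and 16.0 after vehicle, a difference of -1.46 on the log2 scale. That of MMP2 to TIMP2 was 0.113, 0.121 and 0.111, against 0.161, 0.150 and 0.149 after vehicle, a difference of -0.42. The MMP1 to TIMP1 ratio was 0.0132, 0.00915 and 0.0122 after LPS plus nigericin, against 0.00466, 0.00284 and 0.00649 after vehicle, a difference of 1.37. The MMP14 to TIMP2 ratio was thus lower in each LPS plus nigericin library than in any vehicle library, and the MMP1 to TIMP1 ratio higher, with TIMP1 RNA far above MMP1 RNA in all 6.

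**Figure D3:**
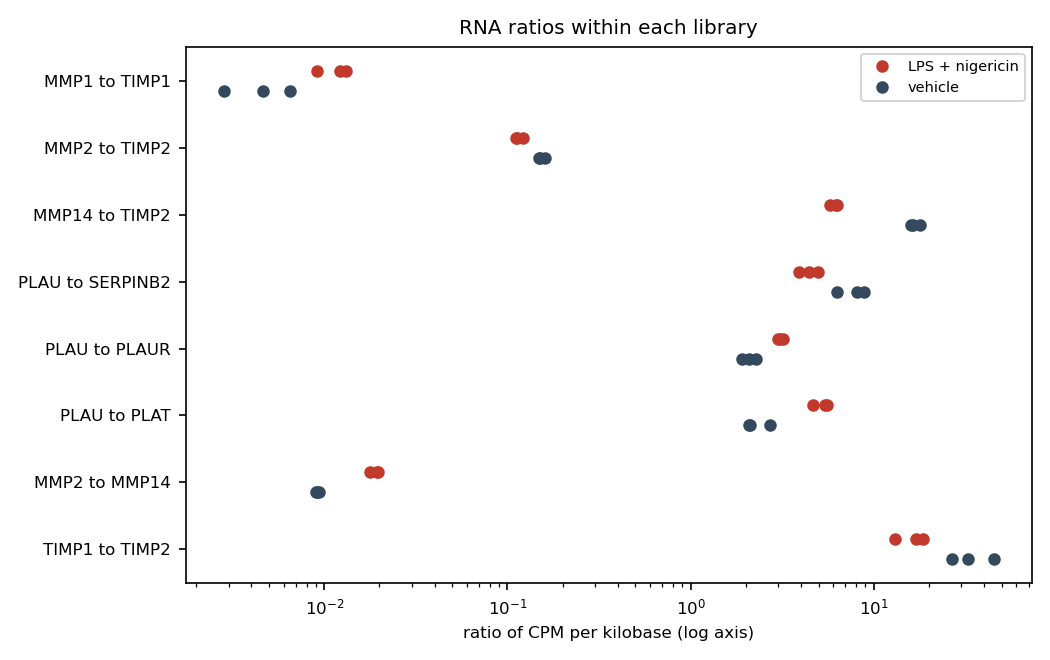
Ratio of the CPM per kilobase of 2 genes within each library (log axis), with LPS + nigericin libraries in red above vehicle libraries in blue. The groups are apart for each of the 8 pairs shown, without the GC and length correction, where 67% of single tested genes had groups apart.

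The log2 difference was -1.09 for TIMP1 to TIMP2, 1.05 for MMP2 to MMP14, 0.57 for PLAU to PLAUR and 1.18 for PLAU to PLAT. These and the other ratios given, 8 in all, had no overlap between the groups without the correction. Of single tested genes, 67% had groups apart, and the share over all gene pairs was not computed. Several of the 8 ratios share a gene, so they are not separate results. Each ratio reached the smallest two-sided exact permutation p that the design allows, 0.1, or 0.1125 after Benjamini-Hochberg adjustment over the 9 computed. No ratio can therefore pass the 0.05 threshold here. With the correction the MMP1 to TIMP1 difference was 0.40, PLAU to PLAT 1.91 and TIMP1 to TIMP2 -0.69. These are ratios of RNA and carry no measure of enzyme activity or secretion.

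MMP1 lies in a cluster of metalloproteinase genes on chromosome 11, and MMP1, MMP3, MMP10 and MMP13, the 4 of its genes that could be tested, rose, where 28.9% of all tested genes were higher. This grouping by position was not a fixed list, and it counts MMP1 again. The 4 genes are GC-poor, at 38.9% to 44.8%, against a median of 49% over tested genes. All 4 also passed as higher with the correction, where 23.4% of all tested genes did. Of the 20 other metalloproteinase genes named, 3 had no row in the table used here. MMP3, stromelysin, averaged 0.976 ± 0.248 CPM after LPS plus nigericin and 0.301 ± 0.129 CPM after vehicle (log2 fold change 1.69 ± 0.440 SE, adjusted p in edgeR = 0.0124). MMP10, a second stromelysin, averaged 1.76 ± 0.191 CPM after LPS plus nigericin and 0.476 ± 0.224 CPM after vehicle (log2 fold change 1.88, edgeR adjusted p = 0.00513). MMP13, another collagenase, averaged 6.33 ± 0.181 CPM after LPS plus nigericin and 2.66 ± 1.06 CPM after vehicle (log2 fold change 1.25, edgeR adjusted p = 0.00826). In these 3 genes, too, all treated libraries were above all vehicle libraries, as in 35% of tested genes. The gene bodies run from MMP10 at 102770503 to 102780628 over MMP1 and MMP3 at 102835801 to 102843803 to MMP13 at 102942995 to 102955734, all on the minus strand. MMP3 and MMP10 are close in sequence, and how reads matching both were counted was not given in the sources used here. With the correction MMP13 was at 0.71. MMP7, also in the cluster, had 12 counts in 1 LPS plus nigericin library and 0 in the other 5.

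Of 17 other matrix metalloproteinase genes in the table, 11 could be tested, of which 5 rose, 3 fell and 3 did not pass. Thus 72.7% passed, where 55.3% of all tested genes did, and the median log2 fold change was -0.03. The membrane-anchored MMP15 and MMP17 fell along with MMP14. MMP15 averaged 6.58 ± 0.735 CPM after LPS plus nigericin and 14.5 ± 0.962 CPM after vehicle (log2 fold change -1.14), and MMP17 4.59 ± 0.740 CPM after LPS plus nigericin and 14.6 ± 3.60 CPM after vehicle (-1.67). With the correction MMP15 was at -0.50 and MMP17 at -0.77, both still past the threshold. MMP11, at 0.779 ± 0.124 CPM after LPS plus nigericin and 1.56 ± 0.242 CPM after vehicle (-1.0), was at -0.45 and did not pass with the correction, and its call was also lost without vehicle library 1 or LPS plus nigericin library 1. MMP11 shares 218 exon bases with CHCHD10 on the other strand, which had 13368 counts in all libraries, so its level may be affected. The membrane-anchored MMP24 and MMP16 passed as higher, at 1.06 and 0.90. MMP24 shares 799 exon bases with MMP24OS on the other strand, which had 18228 counts in all libraries. That is 18.1% of the MMP24 exon bases, and how reads there were assigned was not given in the sources used here. The MMP16 value was -0.24 with the correction, and its call was lost with library totals and without vehicle library 1 or LPS plus nigericin library 1 or 3. MMP9, gelatinase B, was at 0 in all 6 libraries, which allows at most 0.0329 to 0.0453 CPM (3 counts, counting error only).

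**Figure D4:**
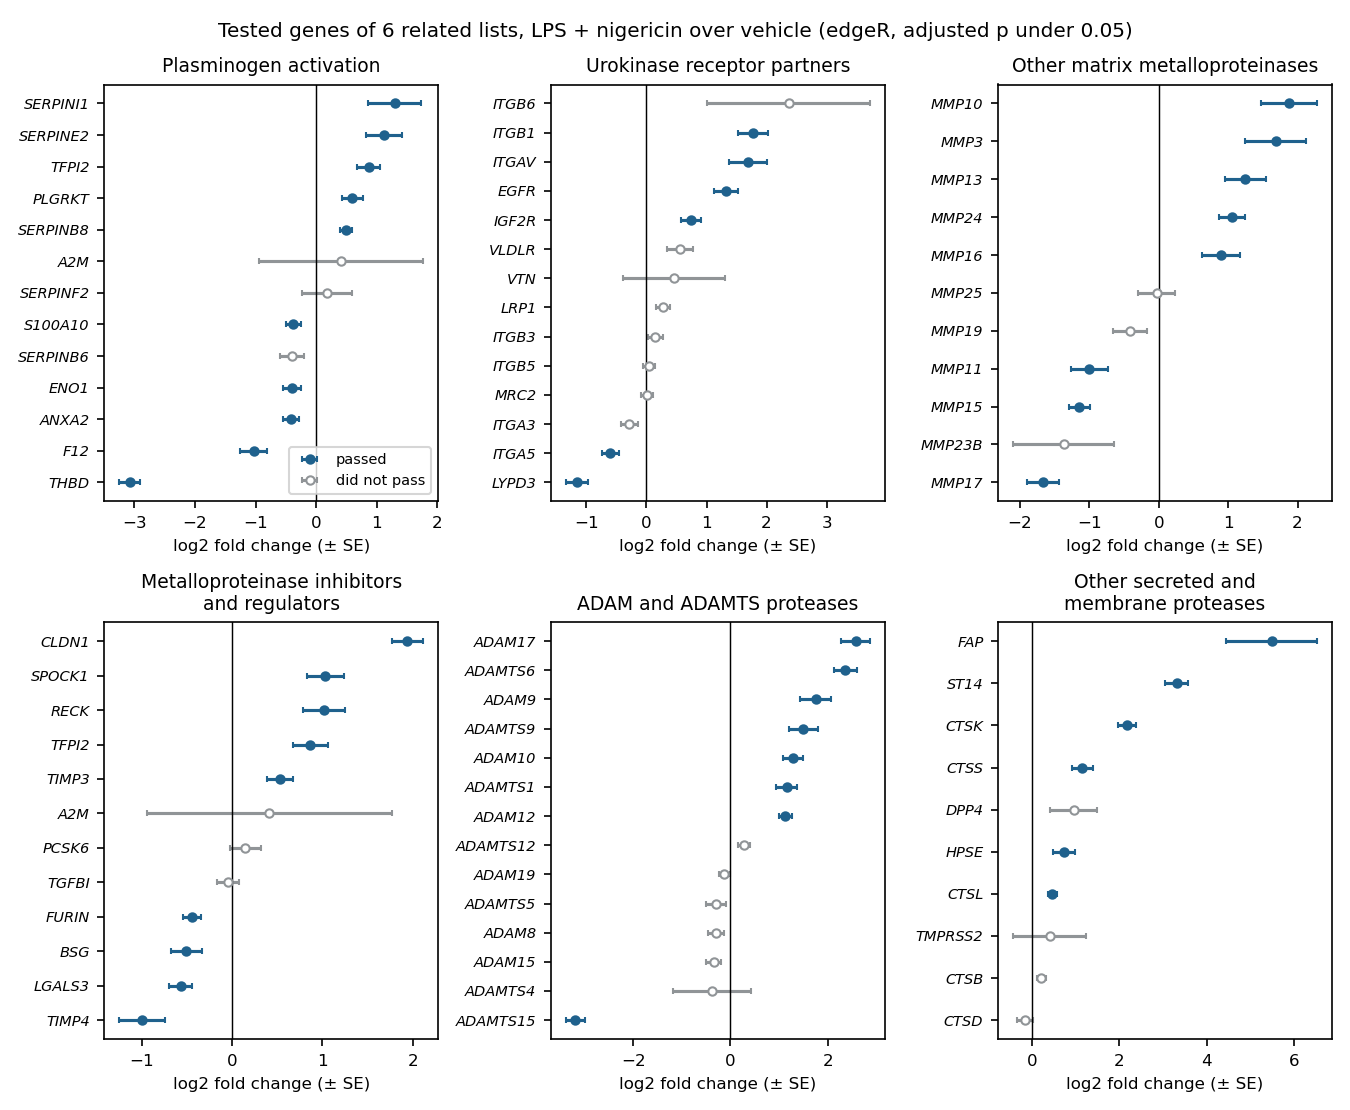
Log2 fold change (± SE) of LPS + nigericin over vehicle for tested genes of 6 related lists (all but 1 gene in each of 2 lists), each in a panel with its own axis. Filled points passed the threshold and open points did not, and every list but that of other secreted and membrane proteases holds called genes in both directions.

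Among the remaining metalloproteinase inhibitors and regulators, 12 genes could be tested, of which 5 rose, 4 fell and 3 did not pass. In this list 75% passed, against 55.3% of all tested genes, and the median was 0.28. TIMP3, the matrix-bound inhibitor, averaged 102 ± 4.12 CPM after LPS plus nigericin and 70.6 ± 12.1 CPM after vehicle (log2 fold change 0.54), or 0.29 with the correction, and its call was lost with library totals or without LPS plus nigericin library 1. RECK, a membrane-anchored inhibitor of several metalloproteinases, averaged 7.62 ± 0.406 CPM after LPS plus nigericin and 3.77 ± 1.10 CPM after vehicle (1.01), or 0.44 with the correction. TIMP4 was lower, at 4.07 ± 0.0697 CPM after LPS plus nigericin and 8.10 ± 2.73 CPM after vehicle (-0.99), or -0.58 with the correction. FURIN, a proprotein convertase that activates the MMP14 proenzyme, averaged 149 ± 3.74 CPM after LPS plus nigericin and 203 ± 12.3 CPM after vehicle (-0.45), and was at 0.07 with the correction (edgeR adjusted p = 0.480). CLDN1, SPOCK1 and TFPI2 passed as higher at 1.94, 1.03 and 0.87, and LGALS3 as lower at -0.57. With the correction CLDN1 was at 1.33, SPOCK1 at 0.47 and TFPI2 at 0.34, and all 3 still passed.

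In the list of other plasminogen activation genes, 14 could be tested, of which 5 rose, 5 fell and 4 did not pass. Here 71.4% passed, against 55.3% of all tested genes, and the median was 0.22. With the correction only 2 rose and 3 fell, where 23.4% of all tested genes were higher and 26.3% lower. THBD, thrombomodulin, an anticoagulant receptor of the cell surface, fell 8.43-fold, to 5.16 ± 0.154 CPM against 43.5 ± 8.16 CPM in vehicle (log2 fold change -3.08 ± 0.173 SE, adjusted p in edgeR = 3.12e-05). SERPINE2, a cell-associated serpin that inhibits urokinase, averaged 132 ± 3.94 CPM after LPS plus nigericin and 60.7 ± 26.6 CPM after vehicle (1.12), but with the correction it was at 0.31 and did not pass (edgeR adjusted p = 0.171).

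The plasminogen-binding pair ANXA2 and S100A10 passed as lower, at -0.42 and -0.37. Both calls were lost without vehicle library 1 or LPS plus nigericin library 1 or 3, and S100A10 was at 0.13 with the correction. ANXA2 was at -0.93 with the correction. The plasminogen receptor gene PLGRKT (0.60), SERPINB8 (0.49) and F12, which encodes coagulation factor XII (-1.03), passed, but none did so with the correction, where PLGRKT was at 0.13, SERPINB8 at -0.11 and F12 at -0.16. F12 shares 399 exon bases with GRK6, on the other strand and with 73055 counts in all libraries. PLGRKT also lost its call with library totals, without vehicle library 1 and without LPS plus nigericin library 1 or 2. No row of the table matched PLG, the plasminogen gene, so its level was not analysed here.

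Among the partners of the urokinase receptor, 15 could be tested, of which 5 rose, 2 fell and 8 did not pass. That is 46.7% passing, where 55.3% of all tested genes passed, with a median of 0.45. ITGB1 and ITGAV, integrin chains that associate with the receptor, rose. ITGB1 averaged 768 ± 94.0 CPM after LPS plus nigericin and 224 ± 77.2 CPM after vehicle (log2 fold change 1.78 ± 0.249 SE, adjusted p in edgeR = 8.02e-04), and ITGAV 49.8 ± 11.5 CPM after LPS plus nigericin and 15.4 ± 6.58 CPM after vehicle (1.69). With the correction they were at 1.09 and 0.71. EGFR, at 125 ± 13.7 CPM after LPS plus nigericin and 49.8 ± 13.4 CPM after vehicle (1.32), was at 0.73 with the correction. IGF2R was at 0.74, or 0.19 without a call under the correction. ITGA5, a chain of the fibronectin receptor, and LYPD3, a relative of the urokinase receptor, fell by 0.60 and 1.15 on the log2 scale. LYPD3 was at -0.50 with the correction. LRP1, which clears urokinase and serpin complexes from the surface, averaged 43.4 ± 2.95 CPM after LPS plus nigericin and 35.8 ± 0.723 CPM after vehicle (0.28, edgeR adjusted p = 0.0685) and passed with the correction, at 0.33.

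Of the ADAM and ADAMTS proteases, 14 could be tested, of which 7 rose, 1 fell and 6 did not pass. The share passing was 57.1%, near the 55.3% of all tested genes, and the median was 0.70. The sheddase gene ADAM10 averaged 86.2 ± 12 CPM after LPS plus nigericin and 35.3 ± 9.44 CPM after vehicle (log2 fold change 1.29), but was at 0.13 with the correction (edgeR adjusted p = 0.226). ADAM17, the sheddase of TNF and EGF receptor ligands, averaged 19.2 ± 6.10 CPM after LPS plus nigericin and 3.23 ± 0.884 CPM after vehicle (2.57, or 1.57 with the correction). It shares 1323 exon bases with IAH1 on the other strand, which had 17256 counts in all libraries. ADAMTS6 (2.36), ADAM9 (1.75), ADAMTS9 (1.5), ADAMTS1 (1.15) and ADAM12 (1.12) also rose. With the correction ADAMTS6 was at 1.54, ADAM9 at 1.05 and ADAM12 at 0.54, all past the threshold. ADAMTS15, a protease of the proteoglycan aggrecan, fell 9.09-fold, to 1.28 ± 0.160 CPM against 11.6 ± 1.03 CPM in vehicle (log2 fold change -3.18 ± 0.187 SE, adjusted p in edgeR = 3.22e-05).

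Of the other secreted and membrane proteases, 10 could be tested, of which 6 rose, 0 fell and 4 did not pass. Passing genes made up 60%, near the 55.3% of all tested genes, and the median was 0.85. ST14, which encodes matriptase, a membrane serine protease that can activate the urokinase proenzyme, rose 9.94-fold. It averaged 8.81 ± 1.69 CPM after LPS plus nigericin and 0.884 ± 0.198 CPM after vehicle (log2 fold change 3.31 ± 0.257 SE, adjusted p in edgeR = 7.84e-05). The cathepsin genes CTSK (2.18), CTSS (1.15) and CTSL (0.47) rose, and CTSS was at 0.40 without a call under the correction, CTSL at 0.73. HPSE, heparanase, passed at 0.74, and its call was lost under the correction, where it was at 0.16, with library totals, without the count filter, with the replicate block, and without any 1 library other than vehicle library 3. FAP, a membrane protease of activated fibroblasts, had 80, 57 and 31 counts after LPS plus nigericin and 0, 0 and 4 after vehicle. The fibroblast marker COL3A1 had 10, 19 and 13 counts after LPS plus nigericin and 0, 0 and 1 after vehicle and was the only 1 of the 4 tested fibroblast markers to pass. Its part in the FAP result was not tested.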

How the data were processed

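The deposited file, per the file headers, gives raw read counts for Ensembl genes in 6 columns, made on hg38 per the submitters' processing notes. The aligner, counter, annotation and strand setting were not given in the sources used here. All 6 count columns matched a library named in the labels, and 37840 of 37871 identifiers matched a symbol. No pair of replicates was alike within sampling noise (chi-square over its degrees of freedom 24.8 to 209). Counts were filtered with edgeR 4.0.16's filterByExpr, scaled by TMM and tested with a robust quasi-likelihood fit in R 4.3.3 with the group as the only term, Benjamini-Hochberg adjusted at 0.05. Standard errors are the size of the log2 fold change over the root of F. Alternatives were RLE factors, library totals, DESeq2 1.42.0, limma-voom (limma 3.58.1), a replicate-number block, no filter, a minimum of 1 CPM in 3 libraries, each library left out, and loess offsets within each library (span 0.3) for transcript GC and length, known for 97.1% of tested genes. The length of the longest transcript was tried after seeing the data. Ratios used a pseudocount of 1 count, with 0.1 as an alternative, and two-sided exact permutation tests. Coordinates, exons and lengths are from GENCODE 29 (GRCh38). The scripts were tested on simulated data. Members, lists and tests were chosen with earlier results of these data known. Named were the 9 members, up to 8 called genes with the smallest p per list, and 11 fixed genes. Protein sequences were not used here, and 2 genes of the lists are not reported here.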

Additional observations from a re-analysis of the deposited data

How the results depend on the processing

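Over the alternatives, genes higher over the whole table numbered 4341 to 6061 and genes lower 4000 to 5579, against 5540 and 5070, each within 1.5 times. Under the GC and length offsets, the members that fell numbered 1 instead of 2, and the ratio differences (log2) were 0.40 for MMP1 to TIMP1, -0.28 for MMP2 to TIMP2, -1.21 for MMP14 to TIMP2, 0.0926 for PLAU to SERPINB2, which turned direction, 0.47 for PLAU to PLAUR, 1.91 for PLAU to PLAT, 0.93 for MMP2 to MMP14 and -0.69 for TIMP1 to TIMP2. In the same fit TIMP1 (0.29), FURIN (0.0689), MMP16 (-0.24), S100A10 (0.13) and SERPINB8 (-0.11) turned direction. PLAUR turned with library totals (-0.0119), without vehicle library 3 (-0.0369) and without LPS plus nigericin library 2 (-0.03), and ranged from -0.0369 to 0.1004 with 1 library left out. The cause was not tested. Leaving out 1 library, 4 members rose, and 2 or 3 fell. With the replicate number as a block, 5513 genes were higher and 4895 lower, and 4 members rose and 2 fell, MMP2 alone among the members losing its call. Same-numbered libraries had deviations correlated at -0.0231, 0.0956 and -0.0236. With 3 libraries per group, these values cannot tell whether same-numbered libraries share more than a number. Genes under about 1 CPM in either group rest on few counts there, which limits MMP3, MMP10, MMP11, ADAMTS9, ST14, FAP and COL3A1.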
